A study of Mus musculus with 6 samples.

Results

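The regions described here are the accessible chromatin peaks that the authors' deposited table assigns to cadherin and protocadherin genes, measured in mouse definitive endoderm with the transcription factor OTX2 present or degraded. They were chosen by the gene column of the table, as peaks whose gene is named Cdh or Cdhr followed by digits, begins with Pcdh, or is a Fat or Dchs gene. In all, 231 of 70494 peaks met this rule, and they belonged to 46 genes. The column names a nearby gene, so a peak can lie far from the gene it is listed under, and the assignment does not show that the peak acts on that gene.

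The assay was ATAC-seq, which tags open DNA with a transposase, in 3 libraries of cells given DMSO and 3 libraries of cells given dTAG13. All libraries came from the line 7H OTX2-dTAG-EGFP, on a BL6/129 hybrid background, in which OTX2 carries a degradation tag and EGFP; dTAG13 directs the tagged protein to the proteasome and DMSO is its vehicle, so the DMSO cells carry the tag as well. Epiblast stem cells were taken to definitive endoderm in CDM, a chemically defined medium, first in Activin A (40 ng/ml) plus CHIR (3 uM) for 16 h, and next in Activin A (100 ng/ml) plus LDN (100 nM) for 24 h, and dTAG13 or DMSO was added at the primitive streak stage and left for 24 h. Live cells were sorted on DAPI, 50000 per library, and since each group is described as technical replicates and the line is a single one, the errors and p-values below measure the spread between these libraries only. The degradation acts on protein, so no value of this table checks the loss of OTX2 itself. All 11 definitive endoderm genes looked up, among them Sox17, Foxa2 and Cxcr4, had a promoter peak, with mean normalized counts of 13.6 to 58.1 in the authors' deposited table. So did all 3 neural genes, 3 of 4 pluripotency genes, 4 of 6 streak and mesoderm genes and 2 of 4 extraembryonic endoderm genes. A promoter peak therefore does not by itself mark the cells as endoderm.

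Cadherins are calcium-dependent adhesion receptors of the cell surface. Classical cadherins bind the same molecule on the neighbouring cell and connect through catenins to actin; E-cadherin (Cdh1) holds epithelia such as the epiblast together, and at gastrulation many cells lower E-cadherin and raise N-cadherin (Cdh2), while definitive endoderm keeps or regains an epithelial form. Protocadherins are a larger group with weaker adhesion, best known from the nervous system, and the giant cadherins of the Fat and Dachsous genes bind each other and set planar polarity and tissue growth. The transcription factors of the Snail, Zeb and Twist families repress Cdh1, and Grainyhead-like and Ovol factors maintain epithelial genes.

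The motif results turn on a few of the called peaks, 5 of which are shown first by sequence, as the plus strand of mm10 from 5′ to 3′, read from the RefSeq copy of GRCm38.p6. Capitals mark the OTX consensus GGATTA (or TAATCC, its complement), which OTX2 and related paired-like homeodomain proteins bind, in the peaks of Cdh4, Cdh9 and Cdh13. They mark the TEAD consensus GGAATG and the E-box CACCTG in the Cdh1 peak, and the T-box consensus AGGTGTGA and GGAATG in the Cdh6 peak. Other motifs within these peaks are not marked. The Cdh6 peak was more accessible in dTAG13 and the other 4 were less accessible.
Cdh1 intron 2, chr8:106621742-106621841: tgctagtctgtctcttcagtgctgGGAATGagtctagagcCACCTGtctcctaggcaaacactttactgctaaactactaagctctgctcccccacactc
Cdh4 intron 2, chr2:179729591-179729713: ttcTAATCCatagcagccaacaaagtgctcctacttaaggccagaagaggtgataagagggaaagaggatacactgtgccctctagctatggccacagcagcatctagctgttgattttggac
Cdh9 intergenic, chr15:16915165-16915415: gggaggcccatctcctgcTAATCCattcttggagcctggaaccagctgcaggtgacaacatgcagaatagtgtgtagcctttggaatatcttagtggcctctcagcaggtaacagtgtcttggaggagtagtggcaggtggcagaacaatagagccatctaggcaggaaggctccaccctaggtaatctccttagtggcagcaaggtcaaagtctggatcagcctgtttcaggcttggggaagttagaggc
Cdh13 intron 1, chr8:118365872-118365958: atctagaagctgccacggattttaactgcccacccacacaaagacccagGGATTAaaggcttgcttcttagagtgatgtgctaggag
Cdh6 intergenic, chr15:13231587-13231743: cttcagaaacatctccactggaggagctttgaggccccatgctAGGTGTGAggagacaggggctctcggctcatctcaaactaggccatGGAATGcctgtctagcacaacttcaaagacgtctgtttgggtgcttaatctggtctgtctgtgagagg

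Loss of OTX2 was accompanied by lower accessibility at a small set of cadherin and protocadherin peaks and by higher accessibility at fewer. Of the 228 peaks of the family with an adjusted p in the authors' deposited table, 15 were lower in dTAG13 at an adjusted p under 0.05 and 4 were higher. Among all 69128 tested peaks, 3.79% were lower, 1.47% were higher and 5.26% changed in either direction, against 6.58%, 1.75% and 8.33% in the family; no test compared these shares. The lower peaks belonged to 10 genes and the higher peaks to 3, with Cdh4 in both, and 34 of the 46 genes had no called peak. By log2 fold change the largest decreases were at 2 peaks within Cdh1, and both called peaks of Cdh6 were increases.

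The median log2 fold change of dTAG13 over DMSO in the authors' deposited table was -0.16 over the family and -0.18 over all peaks. Each value is a log2 ratio of normalized read counts, so a negative value means less signal in dTAG13. The median of all peaks lies away from 0, and the split of the calls moves with where 0 is placed: 15 lower and 4 higher as deposited, 14 and 9 with the median of all peaks set to 0, 7 and 13 with the median set to 0 within each of 10 equal classes of peaks by GC content, and 17 and 3 with the median set to 0 over the peaks that both peak lists hold. The family has 127 peaks below 0 and 104 above as deposited, and 112 below and 119 above with the median of all peaks at 0. Its peaks are weak, since 155 of 231 (67.1%) had a mean below 10 normalized counts per library, beside 62.7% of all peaks. The lower calls had a median GC content of 46.3% and the higher calls 54%, against 52.7% in the family and 53.2% over all peaks. For each peak the table holds a mean over the 6 libraries and a fold change, and single libraries were not analysed. Group means below were estimated from that pair of values, taking the mean as the average of both groups, and where the estimate falls below 3 counts per library the fold is given as a lower bound against 3.

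**Figure D1:**
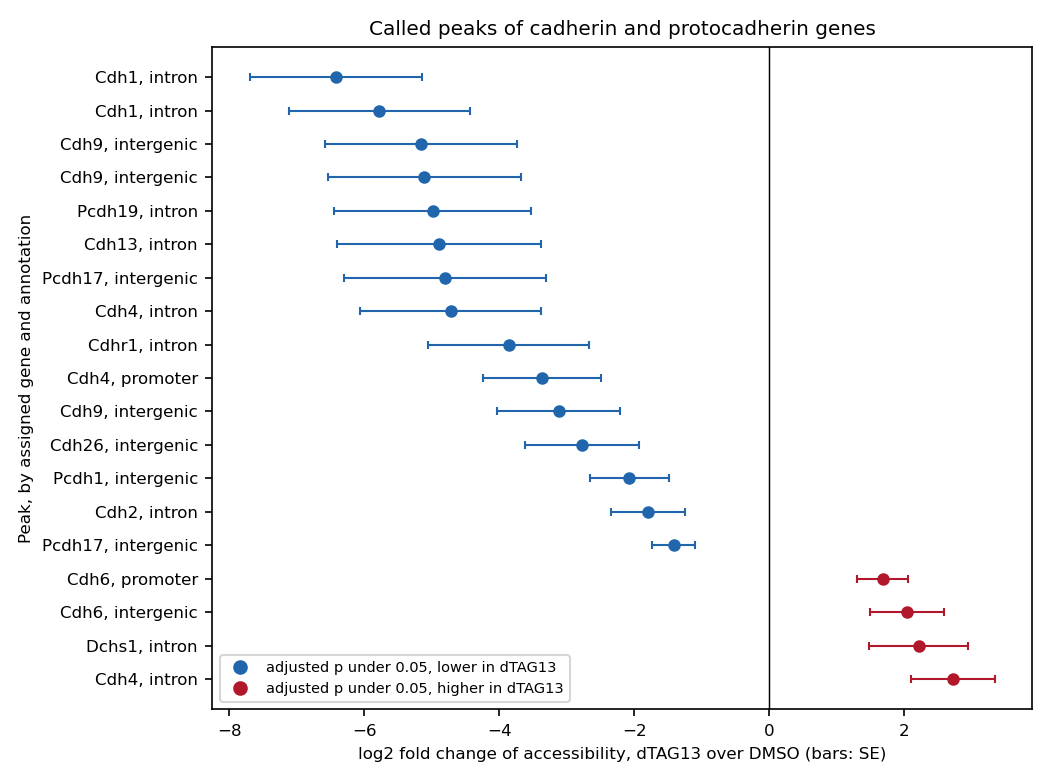
Log2 fold change of accessibility, dTAG13 over DMSO, of the 19 called peaks of the family, from the authors' deposited table, with bars of 1 standard error; each line is a peak, named by its assigned gene and annotation. The 15 decreases run from -6.42 to -1.41 and the 4 increases from 1.68 to 2.72, and the largest decreases have the widest bars.

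**Figure D2:**
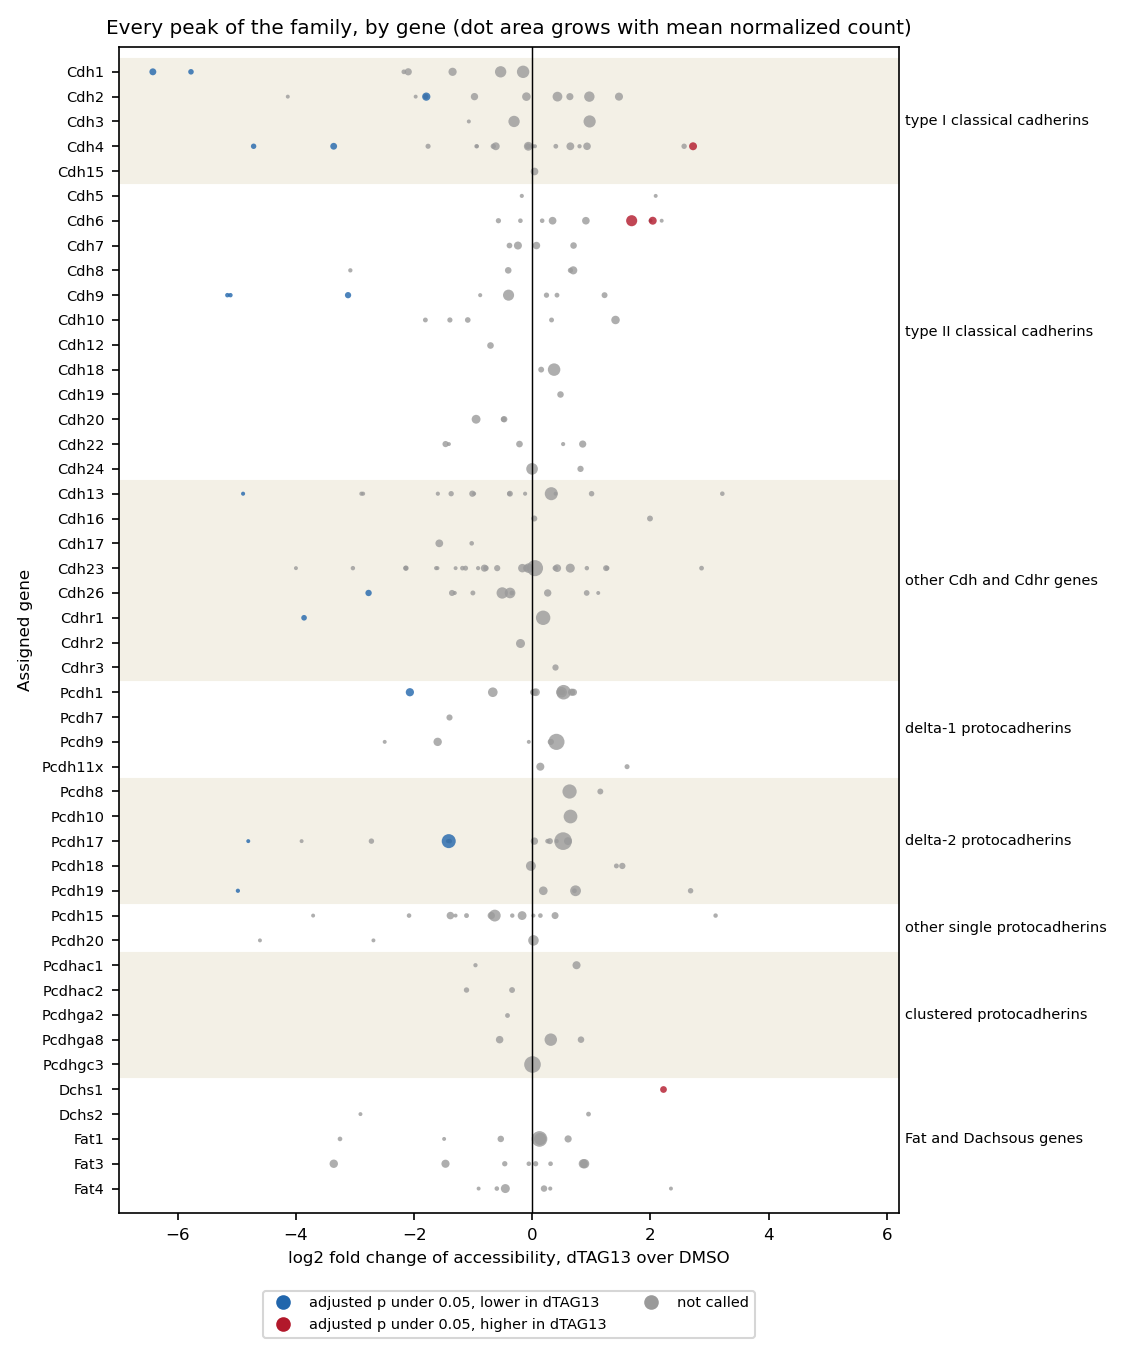
Log2 fold change of every one of the 231 peaks, arranged by gene and by group of the family; dot area grows with the mean normalized count, blue and red mark peaks with an adjusted p under 0.05. The lower and upper quartiles of the values are -1.31 and 0.48. The large dots lie mostly near 0, and the called decreases are mostly small dots.

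The peaks of the family lay farther from gene starts than peaks in general, and its promoter peaks had values nearer 0 than its other peaks. Peaks that the authors annotate as lying within 1 kb of a promoter made up 47 of the 231 (20.3%), against 30.7% of all peaks, and the median distance to the nearest start of the assigned gene was 21529 bases, against 6484 for all peaks. The median log2 fold change was 0.02 at promoter peaks of the family (0.03 at all promoter peaks) and -0.36 at its other peaks (-0.38 at all others). With peaks at the floor set to their bound, the median of the other peaks was -0.21 (-0.25 at all others) and that of the family as a whole -0.10 (-0.13 over all peaks). Of the 19 calls, 2 were at promoters, 9 in introns and 8 in intergenic regions. These are 4.26%, 10.1% and 11.6% of the tested family peaks of each class, against 2.15%, 7.34% and 6.78% over all peaks. No test compared these shares. The 45 peaks more than 100 kb from a start of their gene held 5 of the 15 lower calls and none of the higher ones. From 10 to 100 kb away lay 99 peaks with 8 lower calls and 1 higher. These counts by distance have no counterpart over all peaks here, so they do not set the family apart.

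The type I classical cadherins, the group of E-, N-, P- and R-cadherin, had 38 peaks, of which 5 were lower and 1 was higher. E-cadherin had the largest decreases. In the authors' deposited table its 7 peaks all had negative values, and 6 of the 7 were also negative with the median of all peaks set to 0. The first called Cdh1 peak lies in intron 2 of 15, 14.1 kb from the first Cdh1 start. It fell by 6.42 on the log2 scale (SE 1.28, the authors' adjusted p = 0.000205). Its estimated mean was 18.3 normalized counts in DMSO and below 3 in dTAG13, so it was at least 6.1-fold lower. The second, at chr8:106621742-106621841 in the same intron, fell by 5.78 (SE 1.34, the authors' adjusted p = 0.00235), from an estimated 11.7 counts to below 3, which is at least 3.89-fold lower. Both were found in the peak list of the DMSO cells and not in that of the dTAG13 cells, and both calls held without the filter on weak peaks and under each centring.

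The rest of the Cdh1 locus moved less. The promoter peak at chr8:106603207-106603443 had -0.54 (SE 0.37, the authors' adjusted p = 0.432), with estimated means of 29.3 and 20.2 counts. The strongest peak of the locus, at chr8:106619560-106619945, lies between the pair of called peaks and had estimated means of 31.1 counts in DMSO and 28 in dTAG13, or -0.16 (SE 0.34, the authors' adjusted p = 0.845). The promoter and this peak were in both peak lists, unlike the called pair. Another intron peak, at chr8:106632769-106632961, missed the threshold narrowly, with -2.10 (SE 0.70, the authors' adjusted p = 0.0506) and estimated means of 16.2 and 3.78 counts. The remaining intron peaks had -1.35 (the authors' adjusted p = 0.119) and -2.17 (adjusted p = 0.23).

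**Figure D3:**
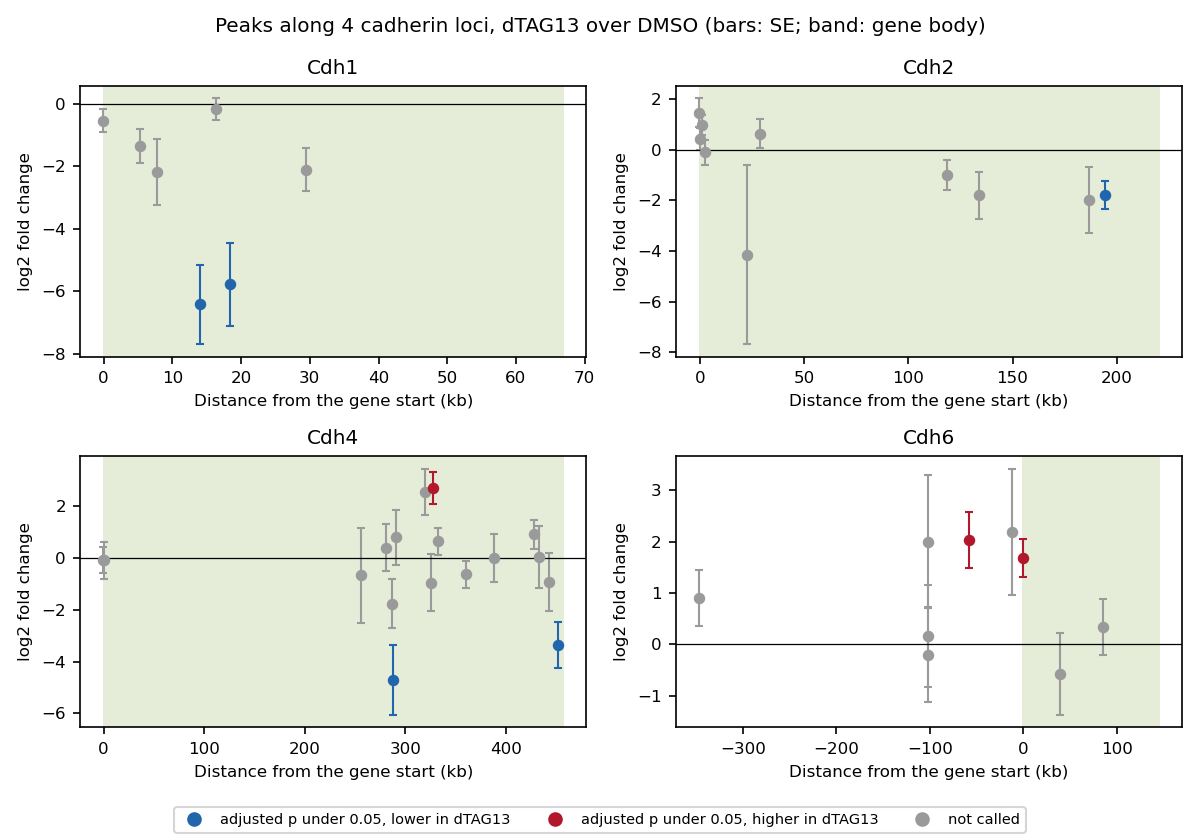
Log2 fold change (dTAG13 over DMSO) of each peak along Cdh1, Cdh2, Cdh4 and Cdh6, by distance in kb from the most upstream annotated start in the direction of transcription; bars are 1 standard error of the authors' deposited table and the green band is the gene body. In Cdh1 the 2 called peaks at 14.1 and 18.4 kb flank a peak near 0 at 16.4 kb, and in Cdh6 both called peaks lie above 0, at the start and 58 kb upstream of it.

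N-cadherin, on chromosome 18, had 10 peaks and a mixed pattern. 1 peak passed the test, chr18:16614760-16615036 in intron 14 of 15 near the end of the gene, which fell by 1.79 (SE 0.55, the authors' adjusted p = 0.0311), from an estimated 20.3 to 5.86 counts. This call was lost with the median of all peaks set to 0 (recomputed adjusted p of 0.0555) and within GC classes (recomputed adjusted p of 0.205). The 3 promoter peaks of Cdh2 had positive values, 0.97 (SE 0.39, the authors' adjusted p = 0.128), 0.43 (adjusted p = 0.612) and 1.47 (SE 0.57, adjusted p = 0.103), and none passed the test. In the strongest of them the estimated mean was 14.1 counts in DMSO and 27.6 in dTAG13. Of the 7 peaks away from the promoter, 6 had negative values as deposited and 5 with the median of all peaks set to 0.

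P-cadherin (Cdh3), which neighbours Cdh1 on chromosome 8, had 3 peaks and no call. Its strongest, chr8:106507763-106508072, about 3 kb upstream of the start, had 0.97 (SE 0.33, the authors' adjusted p = 0.0603), with estimated means of 19.3 and 37.8 counts. It passed the threshold with the median of all peaks set to 0 (recomputed adjusted p of 0.0201) and within GC classes (recomputed adjusted p of 0.0498). The promoter peak of Cdh3 had -0.31 (SE 0.36, the authors' adjusted p = 0.681). The peak upstream of Cdh3 and those inside the neighbouring Cdh1 had values of opposite sign.

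R-cadherin (Cdh4), known from retina and kidney, had 17 peaks along its long gene and calls in both directions. The peak at chr2:179769834-179770075, in intron 2 of 15, rose by 2.72 (SE 0.62, the authors' adjusted p = 0.00207), from an estimated 3.21 to 21.2 counts, 6.59-fold, and was found only in the dTAG13 peak list. In the same intron, chr2:179729591-179729713 fell by 4.72 (SE 1.34, the authors' adjusted p = 0.0174), from an estimated 11 counts to below 3, at least 3.65-fold. Another called peak, chr2:179894332-179894558, annotated as promoter because it lies 536 bases from an internal start 452 kb into the gene, fell by 3.36 (SE 0.87, the authors' adjusted p = 0.00808), from 16.3 counts to below 3, at least 5.43-fold. The promoter of the full-length gene had -0.07 in the authors' deposited table (SE 0.51, adjusted p = 0.959). The intron 2 peak at chr2:179761823-179762006, next to the one that rose, had 2.57 (the authors' adjusted p = 0.0601).

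**Figure D4:**
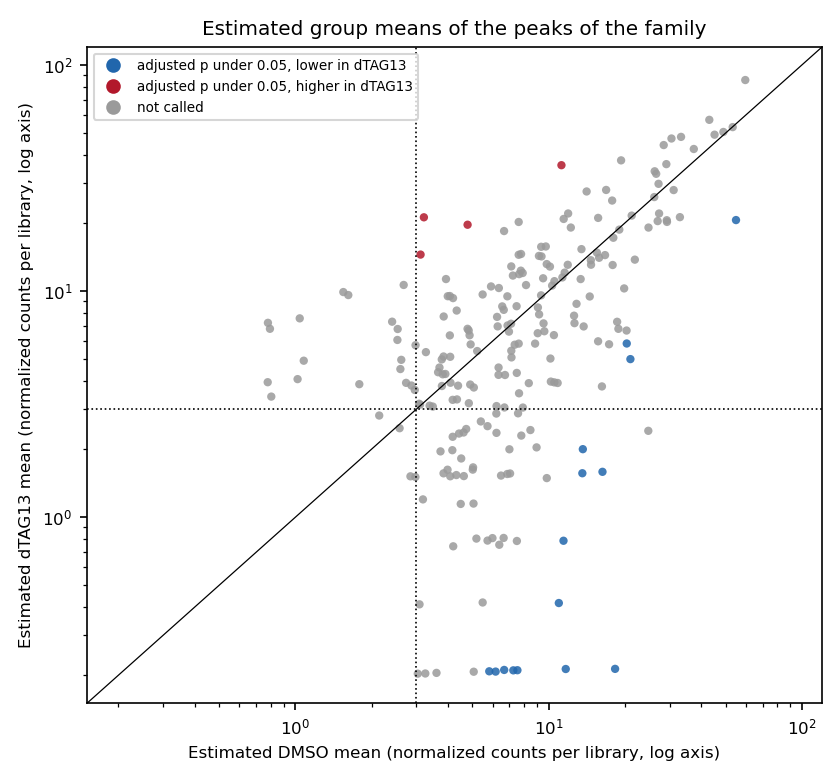
Estimated mean normalized counts per library of the 231 peaks in DMSO (horizontal) and dTAG13 (vertical), both on log axes, from the authors' deposited mean and fold change; the solid line marks equal means and the dotted lines mark 3 counts, below which an estimate is not read as a level. Of the 15 decreases, 12 fall below the dotted line in dTAG13, and all 4 increases lie above 3 counts in both groups.

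The type II classical cadherins had 46 peaks in 12 genes, with 3 lower and 2 higher. Both increases were at Cdh6, or K-cadherin, known from kidney and neural crest. Its promoter peak, chr15:13173534-13173765, rose by 1.68 (SE 0.38, the authors' adjusted p = 0.00155), from an estimated 11.2 counts in DMSO to 36 in dTAG13, 3.21-fold. An intergenic peak 58 kb upstream, chr15:13231587-13231743, rose by 2.04 (SE 0.55, the authors' adjusted p = 0.0113), from 4.78 to 19.6 counts, 4.1-fold. Of the 9 peaks of the gene, 7 had positive values as deposited and all 9 did within GC classes. It was the one gene of the 46 with more than 1 higher call, and its promoter is the one promoter of a full-length gene in the family that was called in the authors' deposited table. Both calls held under every filter and centring tried.

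All 3 decreases of the type II group were at intergenic peaks listed under Cdh9, a cadherin of neurons. A pair of neighbouring peaks over 100 kb upstream was lower in dTAG13. They were chr15:16426524-16426637 at -5.16 (SE 1.43, the authors' adjusted p = 0.0141), at least 2.51-fold, and chr15:16426859-16427038 at -3.12 (SE 0.91, adjusted p = 0.0219), the latter from an estimated 13.6 counts to below 3, at least 4.53-fold. The call of the latter was lost within GC classes (recomputed adjusted p of 0.107). The peak at chr15:16915165-16915415, beyond the other end of the gene, fell by 5.11 (SE 1.42, the authors' adjusted p = 0.015), at least 2.42-fold. The other 5 peaks of Cdh9 were not called and the strongest of them, chr15:16627893-16628163, had -0.40 (the authors' adjusted p = 0.585). For all 3 called peaks the nearest annotated start belongs to another gene, Gm41276 at 70232 and 69864 bases for the pair and Gm49127 at 64326 bases for the other peak, so none of them counts for Cdh9 when peaks are assigned to the nearest start. Cdh5, the cadherin of endothelial cells, had 2 weak peaks with mean counts of 3.28 and 2.11 and no call.

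The other Cdh and Cdhr genes, which include truncated, organ-specific and sensory cadherins, had 57 peaks in 8 genes with 3 decreases and no increase (3 peaks were higher at an unadjusted p under 0.05). Cdh13, or T-cadherin, which is anchored in the membrane by a lipid and lacks the part that binds catenins, had 14 peaks, and chr8:118365872-118365958 in intron 1 fell by 4.90 (SE 1.51, the authors' adjusted p = 0.032), at least 2.06-fold. Less than 2 kb away, the strongest Cdh13 peak, chr8:118367461-118367784, had 0.32 (SE 0.34, the authors' adjusted p = 0.641), with estimated means of 29.1 and 36.4 counts. The start nearest to the called Cdh13 peak is that of Gm45722, at 16276 bases. An intergenic peak 125134 bases downstream of a Cdh26 start, chr2:178585598-178585930, fell by 2.77 (SE 0.84, the authors' adjusted p = 0.0283), at least 4.55-fold. The third, chr14:37103428-37103593 near Cdhr1, a photoreceptor cadherin, fell by 3.86 (SE 1.2, the authors' adjusted p = 0.0326), at least 3.81-fold, and lies in an intron of a different annotated gene. Each of these 3 calls was lost within GC classes (recomputed adjusted p of 0.0715, 0.143 and 0.0864). The most densely covered gene was Cdh23, a cadherin of hair cell tip links, with 25 peaks and no call, 5 of them at an unadjusted p under 0.05; its strongest peak, chr10:60471669-60472248, held 49.7 counts with a log2 fold change of 0.05 in the authors' deposited table.

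Among the protocadherins with single genes, Pcdh17 stood out in level. Its promoter peak, chr14:84443328-84443619, had the highest mean of the family, 72.7 normalized counts, with 0.52 (SE 0.22, the authors' adjusted p = 0.139) and estimated means of 59.7 and 85.7. It passed the threshold with the median of all peaks set to 0 (recomputed adjusted p of 0.0313). A strong intergenic peak over 100 kb upstream, chr14:84247987-84248407, fell by 1.41 (SE 0.32, the authors' adjusted p = 0.00175), from an estimated 54.9 to 20.6 counts, 2.67-fold, the strongest decreasing peak of the family. Its call was lost within GC classes (recomputed adjusted p of 0.236). A weaker peak of the same gene, chr14:84348993-84349114, fell by 4.81 (SE 1.49, the authors' adjusted p = 0.0332), at least 1.94-fold, and this call too was lost within GC classes (recomputed adjusted p of 0.0865). The distal decreases listed under this gene thus stand beside a promoter with a positive, uncalled value. For both of them the nearest annotated start belongs to another gene, Gm29800 at 121323 bases and Gm49057 at 42257 bases. Neither counts for Pcdh17 when peaks are assigned to the nearest start.

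The delta-2 protocadherins, to which Pcdh17 belongs and which are known to act in cell sorting and in neurons, had 23 peaks, 3 of them lower. The third decrease was at Pcdh19, the gene on the X chromosome, where chrX:133609187-133609312 in the last intron fell by 4.98 (SE 1.46, the authors' adjusted p = 0.0223), at least 2.22-fold; the call was lost within GC classes (recomputed adjusted p of 0.064). The strongest promoter peaks of Pcdh8, Pcdh10, Pcdh17 and Pcdh19 had values of 0.63, 0.64, 0.52 and 0.73, and that of Pcdh18 had -0.02. None of the 5 was called in the authors' deposited table, with adjusted p from 0.139 to 0.982. Pcdh8, also called paraxial protocadherin and known from gastrulation movements, had estimated promoter means of 30.5 and 47.3 counts. The intergenic Pcdh18 peak chr3:49766560-49766760 had 1.52 (the authors' adjusted p = 0.208) and was called within GC classes (recomputed adjusted p of 0.0353).

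The delta-1 protocadherins had 19 peaks and 1 call, a decrease at an intergenic Pcdh1 peak, chr18:38148879-38149060, of 2.07 on the log2 scale (SE 0.59, the authors' adjusted p = 0.0176), from an estimated 21 to 5 counts, 4.21-fold. This call was lost within GC classes (recomputed adjusted p of 0.0587). Of the 11 Pcdh1 peaks, 9 had positive values in the authors' deposited table and 6 with the peaks of both lists set to 0. The promoter of Pcdh9, at chr14:93890701-93891000, was the third strongest peak of the family, with 50.1 counts and 0.41 (the authors' adjusted p = 0.41). Pcdh15 and Pcdh20 had 16 peaks and no call, with 4 of them at an unadjusted p under 0.05. The clustered protocadherins, whose stochastic promoter choice gives neurons single-cell identity, had 9 peaks in 5 genes, 8 of them at promoters, with neither a call nor an unadjusted p under 0.05. The promoter of Pcdhgc3, chr18:37806144-37806472, was the second strongest of the family, with 53.2 counts and -0.01 (SE 0.24, the authors' adjusted p = 0.993).

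The Fat and Dachsous genes had 23 peaks in 5 genes with 1 call. That call was the single peak of Dchs1, the ligand of Fat4, at chr7:105778605-105778744, which rose by 2.22 (SE 0.74, the authors' adjusted p = 0.049995), from an estimated 3.12 to 14.5 counts. It was lost without the filter on weak peaks (recomputed adjusted p of 0.051) and with the peaks of both lists set to 0 (recomputed adjusted p of 0.0606), and the peak lies in an intron of an overlapping annotated gene. Fat1 had 1 of the 5 strongest peaks of the family, chr8:44979253-44979697 in intron 2 of 26, with 47.2 counts and 0.12 (SE 0.28, the authors' adjusted p = 0.856). This peak had 0.90 and was called within GC classes (recomputed adjusted p of 0.0382). A weak peak of the same intron, chr8:44960991-44961109, had -3.26 (SE 1.30, the authors' adjusted p = 0.116). At the Fat3 peak chr9:16399003-16399358 the means were 24.7 counts in DMSO and below 3 in dTAG13, yet the error was wide, at -3.36 (SE 1.39, the authors' adjusted p = 0.135).

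The group medians ranged from -0.67 to 0.30 and depended on where 0 was placed. As deposited they were -0.42 for type I, 0.03 for type II, -0.51 for the other Cdh and Cdhr genes, 0.14 for delta-1, 0.30 for delta-2, -0.67 for Pcdh15 with Pcdh20, -0.34 for the clustered protocadherins and 0.06 for Fat and Dachsous. With peaks at the floor set to their bound, they were -0.29, 0.03, -0.39, 0.22, 0.30, -0.50, -0.34 and 0.09 in the same order. With the peaks of both lists set to 0, the medians of type II and of Fat and Dachsous turned negative, at -0.06 and -0.04, and the others kept their sign under each of the 3 centrings. These are descriptions of few peaks, and no test set one group against another.

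The peak lists of the groups come from the same reads as the fold changes, so a match between them is not separate support. The MACS2 peaks are given as 1 list per group, so the lists have no replicate error. Of the 231 peaks, 96 (41.6%) overlapped both lists by at least 1 base, 102 (44.2%) overlapped the DMSO list only and 33 (14.3%) the dTAG13 list only, against 48.2%, 40.1% and 11.8% of all peaks. Of the 15 lower calls, 14 lay in the DMSO list only, the upstream Pcdh17 peak being the exception. Of the 4 higher calls, 2 lay in the dTAG13 list only and the 2 of Cdh6 in both. Family peaks in the DMSO list only had a median log2 fold change of -1.40, and those in the dTAG13 list only 1.25. At promoters of the family, 32 of 47 peaks were in both lists.

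The OTX consensus GGATTA, searched on both strands within 100 bases of each peak's midpoint, was found in 14 of the 231 peaks (6.06%), against 8.84% of all peaks. Of these 14 peaks, 12 had negative values, 4 were called lower and none was called higher, and 11 were in the DMSO list only. Their median log2 fold change was -2.42, against -0.07 for the 217 peaks without it; over all peaks the medians were -1.31 and -0.12. With peaks at the floor set to their bound, these medians were -0.97, -0.06, -0.66 and -0.09. Among the 4 called peaks were the Cdh4 and Cdh13 intron peaks shown above, with the motif at positions 4 to 9 and 50 to 55 counted from the first base of the peak, and the Cdh2 intron peak. In the distal Cdh9 peak the motif lies within the peak, at positions 19 to 24, but outside the searched window, which makes 5 of the 15 lower peaks with the motif inside the peak. The reversed sequence ATTAGG, a control that shares 4 letters with the consensus and can overlap it, was found in 17 peaks (7.36%), against 7.09% of all, and in 3 of the 15 lower peaks. Among all lower peaks of the table, 34.2% held GGATTA and 16.1% held ATTAGG, and among all higher peaks 1.28% and 5.61%.

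Other motifs were counted in the same way. Of the 231 peaks, 39 held the GATA consensus AGATAA (16.9%, against 15.7% of all), 42 the SOX consensus ACAAAG (18.2%, against 16.4%), 6 the FOX consensus TGTTTAC (2.6%, against 5.34%) and 12 the CTCF motif (5.19%, against 5.37%). The TEAD consensus GGAATG was in 35 (15.2%, against 11.6%), the E-box CAGGTG, which Snail and Zeb factors bind, in 58 (25.1%, against 21.3%) and the T-box consensus AGGTGTGA in 6 (2.6%, against 1.71%). Of the 15 lower peaks, 5 held the SOX consensus, 4 the GATA, 4 the TEAD, 3 the E-box and 2 the FOX consensus, beside 4 with OTX in the same window. The motifs differ in how common they are over all peaks, and no test compared these counts. Over the whole table, lower and higher calls held the GATA consensus in 30.2% and 17.5%, SOX in 25.8% and 14.9%, TEAD in 9.57% and 22.7%, and the E-box in 28% and 14%. Both strands were searched, and a match describes letters, not a bound site. In the Cdh1 peak shown above, the TEAD consensus stands at positions 25 to 30 and the E-box at positions 41 to 46, and GGATTA is not within the peak. In the upstream Cdh6 peak that rose, the T-box consensus stands at positions 44 to 51 and the TEAD consensus at positions 90 to 95. CTCF was found in the Dchs1 peak and in none of the 15 lower ones.

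The table also marks some genes as DEGdown or DEGup, with no statement of the experiment behind the marks. In the family, Cdh1, Cdh8, Fat1 and Fat3 were marked down and Cdh2, Cdh3 and Pcdh7 were marked up, and 39 genes had no mark; over all 26796 genes of the table, 1.38% were marked down and 1.6% up. Cdh1, marked down, had 2 lower calls, and Cdh2, marked up, had 1 lower call in intron 14 beside uncalled positive values at its promoters. Cdh8, Fat1 and Fat3, also marked down, had no call. Their negative and positive values as deposited numbered 2 and 2, 3 and 3, and 4 and 4. Cdh3, marked up, had the uncalled upstream peak of 0.97 and Pcdh7, marked up, a single uncalled promoter peak of -1.42 (SE 0.73, the authors' adjusted p = 0.262). Cdh6 and Cdh4, the genes of 3 of the 4 higher calls, carried no mark.

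Proteins that work with cadherins were examined next, in a list of catenins, adaptors, nectins, desmosomal and other cadherin-superfamily genes, planar polarity genes and proteases. Its 47 genes with peaks had 244 peaks, of which 7 of 241 tested were lower and 1 was higher (3.32% called, against 5.26% of all; 7 lower and 4 higher with the median of all peaks set to 0, and 5 and 4 within GC classes), with a median of -0.21, or -0.17 with peaks at the floor set to their bound. The catenins and plakophilins had 55 peaks, none of them lower, and 1 that rose, in intron 1 of Jup, which encodes plakoglobin, by 3.27 (SE 0.98, the authors' adjusted p = 0.0262), at least 3.36-fold. Celsr1, a planar polarity cadherin, had 2 lower peaks in intron 1, chr15:86013184-86013366 at -5.89 (SE 1.33, the authors' adjusted p = 0.0017), at least 4.19-fold, and chr15:85994945-85995086 at -2.32 (SE 0.65, adjusted p = 0.0159). Magi1, a junction scaffold, also had 2 lower peaks in intron 1, chr6:94012056-94012321 at -3.66 (SE 0.85, the authors' adjusted p = 0.00251) and chr6:94272690-94272849 at -5.14 (SE 1.44, adjusted p = 0.0152), both with GGATTA. They were at least 6.55-fold and 2.47-fold lower. The other lower peaks were single introns of Magi2 at -5.09 (the authors' adjusted p = 0.0172), Nectin1 at -4.76 (adjusted p = 0.0399) and Adam10, the protease that sheds E- and N-cadherin, at -5.14 (adjusted p = 0.0168). All 3 are weak peaks, at least 2.37-fold, 1.89-fold and 2.46-fold lower in that order. The 13 desmosomal cadherin peaks had no call, and 2 of them had an unadjusted p under 0.05.

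Of the transcription factors and splicing regulators known to act on cadherin genes or epithelial form, 20 genes had 90 peaks, and of the 88 tested 5 were lower and 1 was higher, with a median of -0.25, or -0.22 with peaks at the floor set to their bound. These are 5.68% lower and 1.14% higher, against 3.79% and 1.47% of all peaks, and the split was 4 lower and 2 higher with the median of all peaks set to 0. An intron peak of Ovol2, a repressor of mesenchymal genes, at chr2:144308776-144309061, fell by 5.63 (SE 1.07, the authors' adjusted p = 0.000104), from an estimated 38.2 counts to below 3, at least 12.7-fold, and held GGATTA. The epithelial splicing factors had 1 decrease each, Esrp1 upstream of its start by 1.82 (SE 0.42, the authors' adjusted p = 0.00229, 34.5 to 9.75 counts) and Esrp2 at its promoter by 1.31 (SE 0.43, adjusted p = 0.049, 29.8 to 12 counts). An intergenic peak of Grhl2 fell by 1.12 (SE 0.30, the authors' adjusted p = 0.0116, 53.5 to 24.6 counts) and one near Tcf3, a factor that binds E-boxes, by 1.50 (SE 0.44, adjusted p = 0.0232, 28.8 to 10.2 counts). The increase was 5361 bases from the start of Snai1, a repressor of Cdh1, at chr2:167543373-167543740. It was 1.73 (SE 0.42, the authors' adjusted p = 0.00353), from 10.4 to 34.5 counts. The other Snai1 peak, chr2:167537930-167538277, was stronger, with a mean of 59.3 counts, and had -0.22 (SE 0.23, the authors' adjusted p = 0.638). The Snai2 peaks had 0.26 and 0.51 and the Snai3 peaks -0.83 and -1.35, none of them called. Zeb1, Zeb2, Twist1, Twist2 and Snai2 had no call in the authors' deposited table, nor did Grhl1, whose 3 peaks had values of 0.54, 0.35 and 0.12, or Grhl3, with -1.13 and -0.61.

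**Figure D5:**
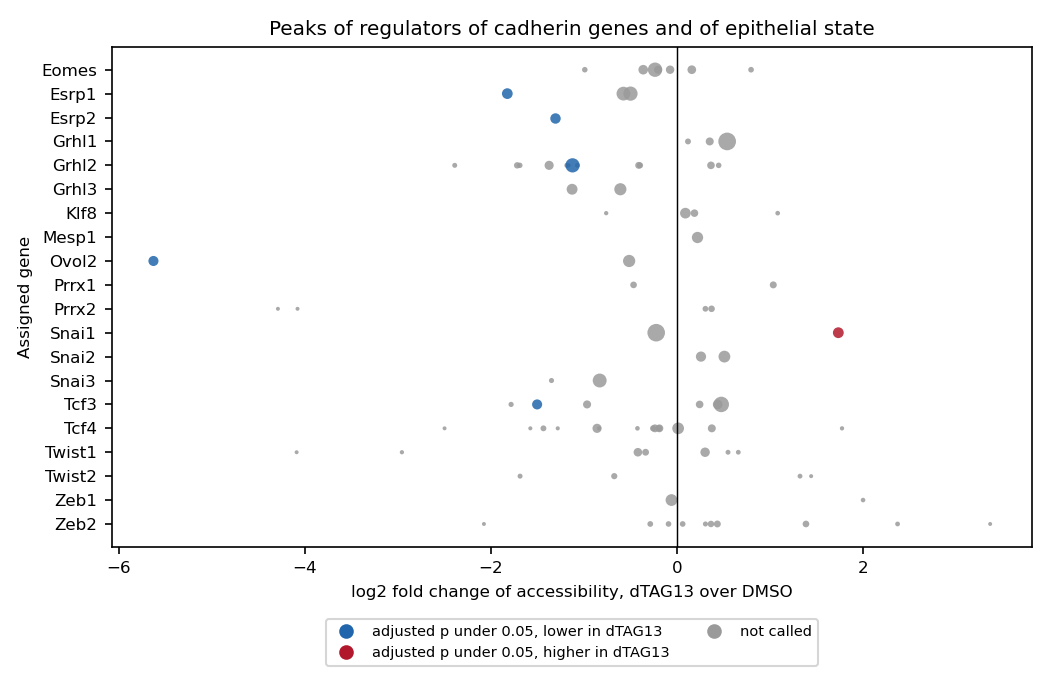
Log2 fold change of each of the 90 peaks of regulators of cadherin genes and of epithelial state, by gene, from the authors' deposited table; dot area grows with the mean normalized count. The called decreases are at Ovol2, Esrp1, Esrp2, Tcf3 and Grhl2, and the called increase at Snai1 is 1.73.

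In bulk libraries such as these, fewer cells of a type and less accessibility per cell cannot be told apart. Estimated means were summed over the strongest promoter peak of each marker gene. For the 11 definitive endoderm genes the sum went from 413 counts in DMSO to 356 in dTAG13. It went from 99.6 to 70.4 for 3 pluripotency genes and from 64.6 to 113 for 4 streak and mesoderm genes. For 3 neural genes it went from 40.9 to 72.5, and for 2 extraembryonic endoderm genes from 19.9 to 13.9. Genes within a set could differ in direction. Single log2 fold changes ran from -2.99 to 0.70 for pluripotency, -0.54 to 1.53 for streak and mesoderm, and -1.48 to 0.04 for definitive endoderm. They ran from 0.29 to 1.44 for neural genes and -0.73 to -0.37 for extraembryonic endoderm. Cxcr4 and Pou5f1 were called lower and Mixl1 and Sox1 higher in the authors' deposited table. They were 1 gene each of the endoderm, pluripotency, streak and neural sets. Of all tested promoter peaks, 1% were lower and 1.15% higher, and no test set the markers against these shares. Nanog, Mesp1, Foxc2, Ttr and Apoa1 had no promoter peak among those analysed. The part of these shifts in the values of the cadherin and protocadherin peaks was not tested.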

How the data were processed

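ATAC-seq libraries of 3 DMSO and 3 dTAG13 samples were compared through the authors' deposited table of 70494 peaks. The signal column is the authors' mean over all libraries of normalized read counts per peak, per the file headers. The log2 fold change is that of dTAG13 over DMSO with its standard error, negative where DMSO is higher, per the file headers. The authors' score column was checked to be the ratio of fold change to standard error (differences up to 8.72e-07). The p-value and adjusted p-value are as the authors deposited them; 1366 peaks with a mean of at most 1.87 counts have no adjusted p-value. The deposited peak lists give positions only, 1 list per group. The submitters' processing notes name fastp, Bowtie2, MACS2, featureCounts, HOMER 4.11, ChIPseeker and build mm10; their roles, options, read filters, duplicate handling and any shift of read ends are not given in the sources used here. Such choices set the width and counts of weak peaks. Depth per library is unknown, so the authors' standard errors stand for the precision of each peak.

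No test of the libraries was run, since no file used here gives values per library; the authors' adjusted p under 0.05 was counted. Group means were estimated from the mean and the fold change, with a floor of 3 counts per library. Alternatives adjusted p-values anew by Benjamini-Hochberg after changing the filter or the centring, from a two-sided normal test of the fold change over its standard error. The sequence of 1 called peak is not reported here. Sequences came from GRCm38.p6 and start sites from GENCODE M21, in which all 231 peaks had a start of their own gene; the alternative planned on the authors' distance used these starts, because the table gives no distance. Promoter means the authors' class within 1 kb. Peaks named are all called ones, the 5 strongest, the strongest promoter peak and the peak with the smallest p of a fixed gene list, and every called peak of the partner and regulator lists. Other peaks given one by one were chosen after their values were seen. The members and lists were chosen with earlier results of these data known. Overlap, motif and adjustment functions were tested on simulated data. Tools were Python 3.11.15, numpy 2.4.6, pandas 2.3.3, scipy 1.17.1, pysam 0.24.0 and matplotlib 3.10.9.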

Additional observations from a re-analysis of the deposited data

How the results depend on the processing

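The 15 lower peaks became 4 among peaks with a mean of at least 10 counts, 7 with fold changes centred within 10 classes by GC content (an alternative chosen after seeing the data) and 9 when peaks were assigned to the nearest start site. The 4 higher peaks became 9 with the median of all peaks set to 0, 13 within GC classes and 10 at an adjusted p under 0.1. The partner list had 8 calls, 3 among peaks with a mean of at least 10 and 20 at an adjusted p under 0.1. The 96 peaks in both lists became 81 when an overlap of 50% of both peaks was asked for, and the 14 peaks with GGATTA became 6 within 50 bases of the midpoint. Of the 19 called peaks, 9 kept their call under every filter and centring in which they could be tested and 10 lost it in 1 or more. The 6 lower calls among those kept all had means below 10 counts, so the filter of at least 10 could not test them. The lower calls of Cdh2, Pcdh1 and the stronger Pcdh17 peak, which that filter did test, were each lost within GC classes. Of 22 named peaks without a call, 4 gained one. No single peak named here changed its sign together with a call, while the balance of lower to higher calls in the family turned from 15 and 4 to 7 and 13 within GC classes. The cause of these changes was not tested, except that the stricter filter tests fewer peaks, 76 in place of 228. No paired analysis was possible because the values deposited per peak are means and fold changes over all libraries, and leaving out a library was not run for the same reason. Most peaks rest on few reads, which limits what a missed call shows.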
